A study of Mus musculus with 16 samples.

Results

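The let-7 family is a set of microRNAs (miRNAs) that share the same seed. The members described here are mmu-let-7a, mmu-let-7b, mmu-let-7c, mmu-let-7d, mmu-let-7e, mmu-let-7f, mmu-let-7g, mmu-let-7i and mmu-miR-98, written without the prefix from here on. They are 9 of the 611 mouse miRNAs on the arrays. They were chosen by name and not by a cut on their values, though earlier results of these data were known. The 16 samples were carotid arteries from female mice on a C57BL/6 background that carry the ApoE-/- genotype and received a western-type diet. All groups, the controls included, therefore share the loss of apolipoprotein E, which raises plasma cholesterol. Uninjured arteries (n = 3) were compared with arteries taken 1 day (n = 3), 7 days (n = 3), 14 days (n = 3) and 28 days (n = 4) after a wire had been passed through the vessel to injure it, a model of neointima formation. The mice of day 1 were labelled as 8 weeks old and all others as 6 to 8 weeks. The labels do not say whether each array holds the RNA of a single mouse, nor when and on which side the uninjured arteries were taken, so p-values measure the spread between these samples.

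A miRNA is cut from a hairpin in a longer transcript by the nucleases Drosha and Dicer. The guide strand then enters an Argonaute protein and represses messenger RNAs that pair with its seed, while the passenger strand is mostly degraded. The let-7 family was found in Caenorhabditis elegans as a timer of development, and in mammals it is known for restraining proliferation by repressing targets such as Ras genes, Hmga2 and Lin28. The protein LIN28 in turn binds let-7 precursors and blocks their processing.

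The mature sequences, which set what each member can pair with, come from RefSeq (GRCm38.p6), where all 9 names were matched. Capitals mark bases 2 to 8, the seed, counted from the 5′ end. All 9 seeds were the same, and 11 names among 1674 distinct mouse mature sequences of RefSeq carried it.
let-7a: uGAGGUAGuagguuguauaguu
let-7b: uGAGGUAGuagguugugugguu
let-7c: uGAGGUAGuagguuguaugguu
let-7d: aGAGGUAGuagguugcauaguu
let-7e: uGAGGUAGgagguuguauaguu
let-7f: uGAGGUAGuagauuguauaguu
let-7g: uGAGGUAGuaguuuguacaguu
let-7i: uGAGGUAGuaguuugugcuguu
miR-98: uGAGGUAGuaaguuguauuguu

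Set against let-7a, the others differed only outside the seed. In the substitutions that follow, the base of let-7a comes before the position and the member's base after it. let-7c has A19G, let-7e has U9G and let-7f has G12A. let-7b has A17G and A19G, let-7d has U1A and U16C, let-7g has G12U and U18C, and miR-98 has G11A and A19U. let-7i stands farthest from let-7a, with the 4 substitutions G12U, A17G, U18C and A19U. The files do not give the probes' sequences, so how far a probe also bound a near-identical member was not tested.

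The hairpins lie in several transcription units, named here because neighbours can be cut from the same transcript. let-7a-1, let-7f-1 and let-7d lie within 2261 bases of chromosome 13 (chr13:48536012-48538272, minus strand). let-7c-2 and let-7b lie within 801 bases (chr15:85706603-85707403) inside the long noncoding RNA gene Lncppara. let-7f-2 and miR-98 lie within 976 bases of the X chromosome (chrX:151912346-151913321) inside the gene of the ubiquitin ligase Huwe1. let-7c-1 follows miR-99a on chromosome 16 (chr16:77598936-77599750), and let-7e lies beside miR-125a inside Spaca6 on chromosome 17 (chr17:17830352-17830879). let-7a-2 lies between miR-100 and miR-125b-1 in the noncoding gene Mir100hg (chr9:41531425-41582002). let-7g lies in Wdr82 (chr9:106178840-106178927), and let-7i (chr10:122985640-122985724, minus strand) had no overlapping gene in the annotation. The hairpins of miR-99b and miR-125b-2 were not found in the coordinates used, so the neighbours named here may be incomplete. let-7a, let-7c and let-7f each come from more than 1 hairpin, and an array of mature miRNAs cannot tell these apart.

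Each value is the log2 of a probe's signal divided by the 75th percentile of 395 probes detected on all arrays (log2 scaled signal), so a difference of 1 is a doubling. That percentile ran from 401 to 1432 intensity units over the arrays, and 251 to 335 miRNAs per array were well above background. The arrays lay on 2 slides. Slide 1 held day 1, day 7 and day 28 replicates 1 and 2. Slide 2 held the uninjured arteries, day 14 and day 28 replicates 3 and 4. Comparisons of day 1 or day 7 with uninjured arteries therefore cross slides, day 7 against day 1 and day 14 against uninjured do not, and a fit with slide as a block rests on the 4 day 28 arrays. In that fit the difference of day 28 from uninjured arteries is that of the slide 2 arrays alone. Within a group, arrays correlated at 0.929 to 0.997 over the tested miRNAs. The 9 members have 2 probes each with 10 spots per probe, all 18 probes were well above background on all 16 arrays, and 0 of the spots were saturated. The brighter probe of each member stands for it unless the dimmer is named. Array number, not counting, limits the precision, and levels of different probes are not compared with each other.

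The 2 probes of a member gave different changes on slide 1 for part of the family, which bears on every result across slides. For let-7i the brighter probe exceeded the dimmer by a mean log2 of 1.78 on slide 1 and 2.54 on slide 2, a shift of 0.77, and the ranges of the 2 slides (1.56 to 1.90 and 2.37 to 2.63) did not overlap. The shift was 0.72 for let-7e, 0.54 for let-7d, 0.40 for let-7c, 0.39 for let-7b and 0.29 for let-7g. It was 0.07 for let-7a, 0.04 for let-7f and -0.01 for miR-98. The median shift was 0.39 over the 9 members and 0.05 over the 155 miRNAs that had 2 probes detected on all arrays. Among the day 28 arrays alone, which lie on both slides, the shift was 0.57 for let-7i, 0.55 for let-7e, 0.35 for let-7d, 0.32 for let-7b and 0.23 for let-7c. The range of slide 2 lay wholly above that of slide 1 for 4 members, let-7c, let-7d, let-7e and let-7i, against 34 of the 155. Ranges apart in the other direction were not counted over the 155. Which probe is nearer to the miRNA's true change was not tested, and dimmer-probe values are given beside the main comparisons.

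**Figure D1:**
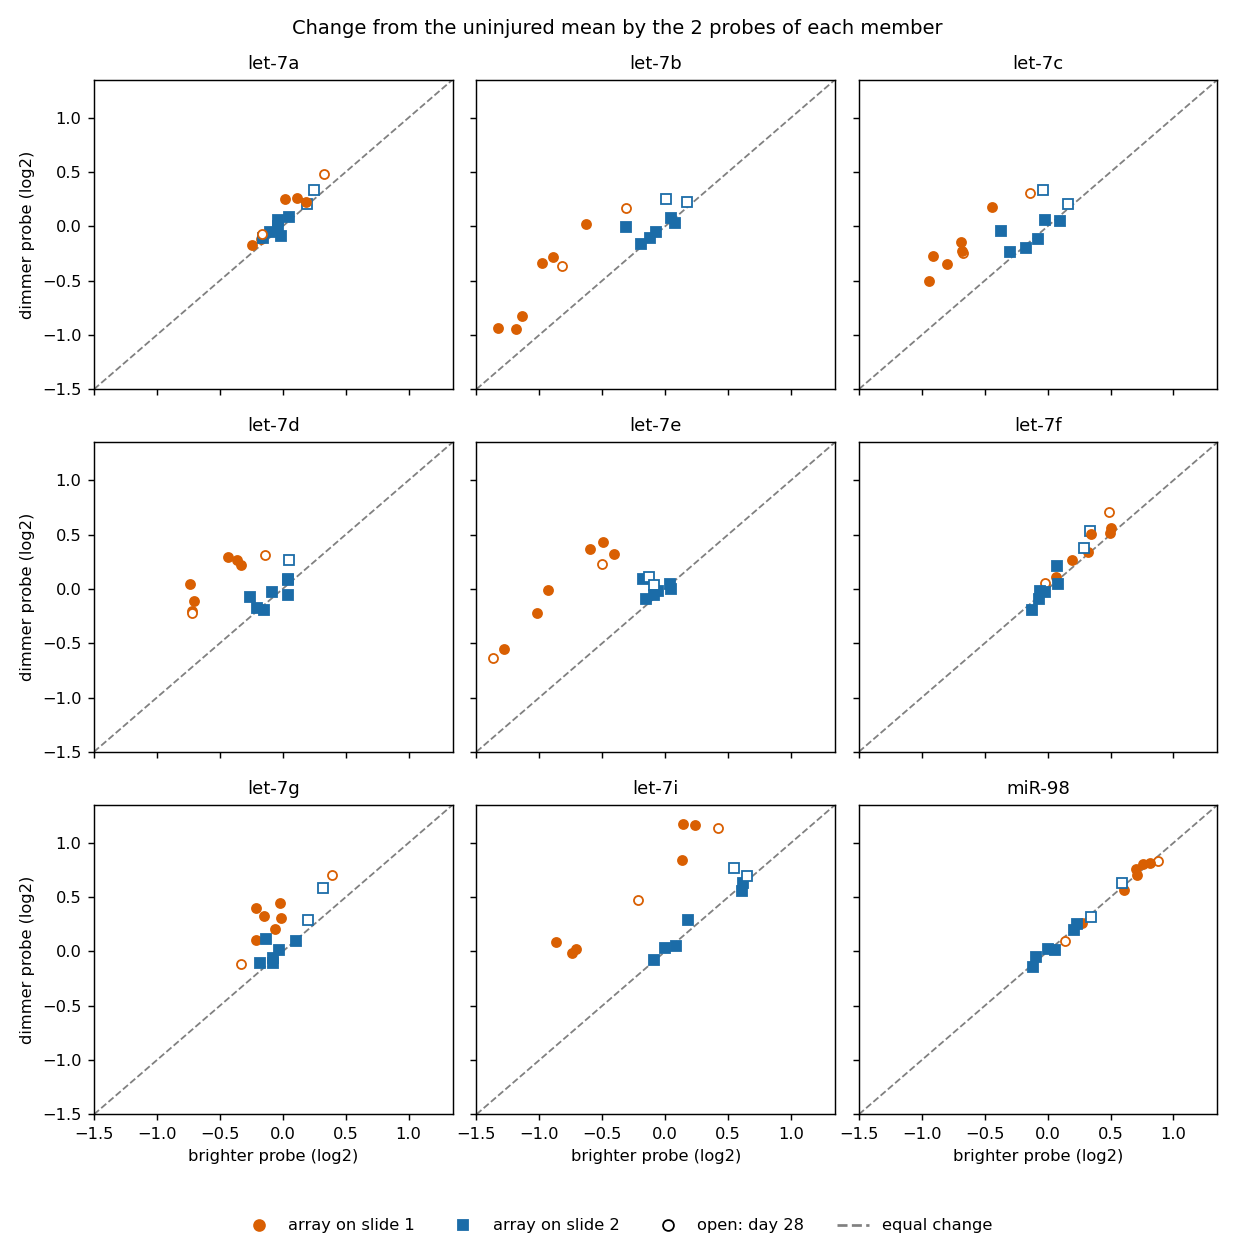
Change from the uninjured mean (log2) by the brighter probe on the horizontal and the dimmer probe on the vertical axis, 1 point per array and 1 panel per member, with circles for slide 1, squares for slide 2, open symbols for day 28 and a dashed line of equal change. Points of let-7a, let-7f and miR-98 follow the line on both slides, while circles of let-7i, let-7e and let-7d lie above it.

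By the brighter probes the mean of the family was lowest at day 1, in a comparison with uninjured arteries that crosses slides. Not all members fell, as let-7f and miR-98 had positive differences. The median difference of the 9 members at day 1 was -0.72 by the brighter probes. It was -0.09 by the dimmer probes and -0.25 with slide as a block. The mean log2 scaled signal of the 9 members was 3.56, 3.61 and 3.70 on the uninjured arrays and 3.18, 3.20 and 3.07 at day 1, so these groups did not overlap. It was 3.50, 3.46 and 3.60 at day 7 and 3.56, 3.61 and 3.54 at day 14, both overlapping the uninjured range. At day 28 it was 3.16, 3.78, 3.84 and 3.84, with replicate 1 far below the other 3. That low array lies on slide 1, and so does replicate 2 at 3.78.

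**Figure D2:**
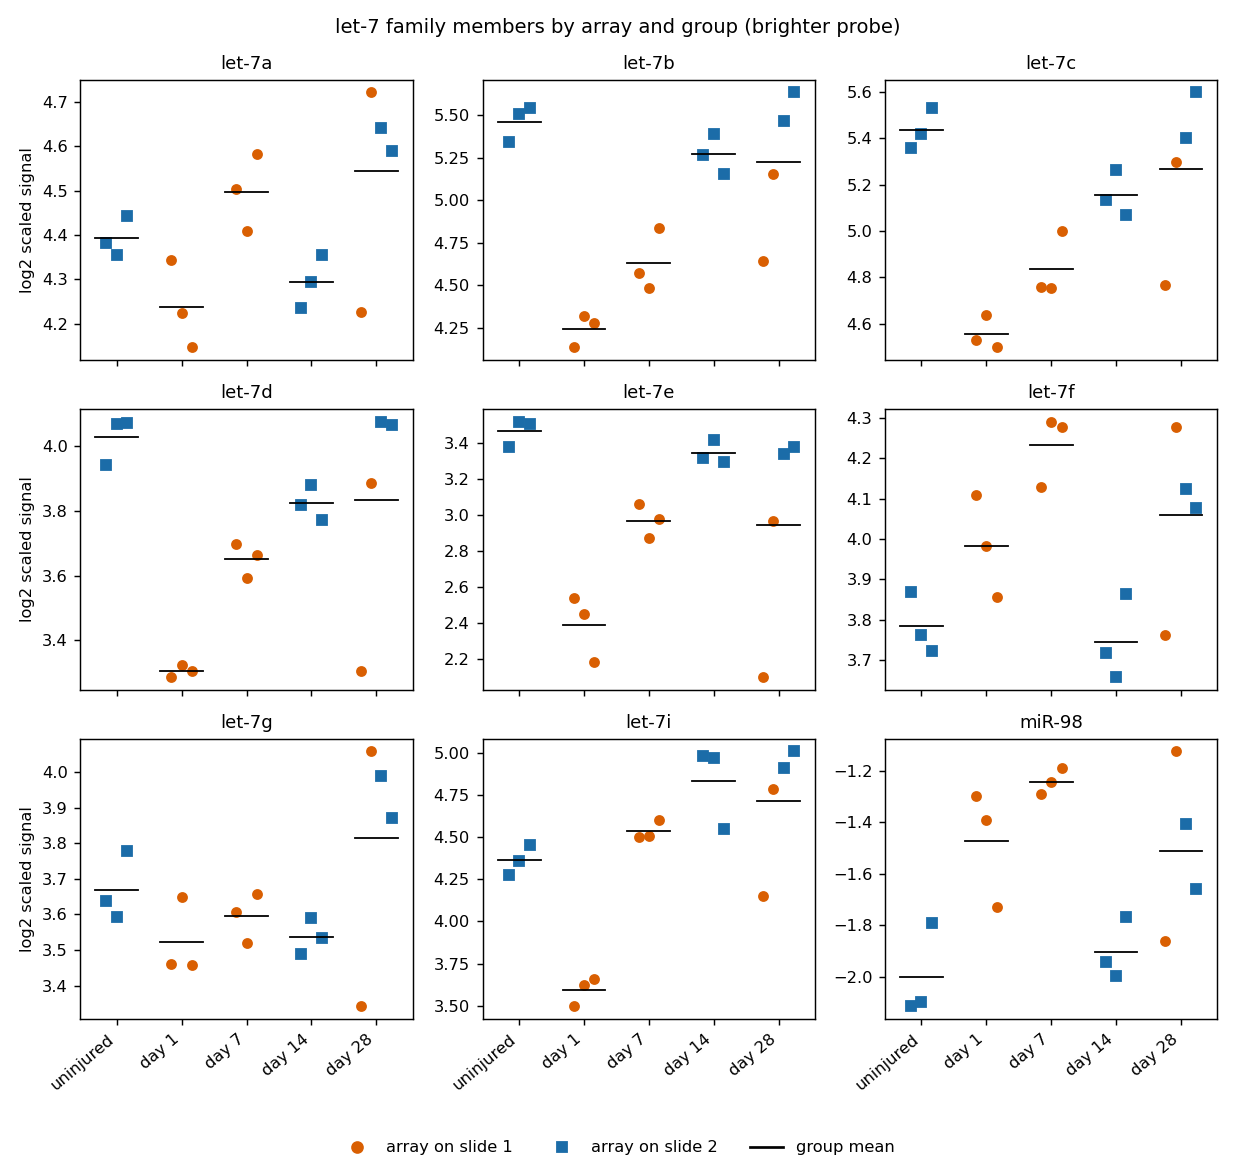
Log2 scaled signal of each member on each of the 16 arrays by group, with circles for slide 1, squares for slide 2 and black lines for group means; each panel has its own vertical axis. let-7b, let-7c, let-7d, let-7e and let-7i are lowest or among the lowest at day 1, while let-7f and miR-98 are highest at day 7.

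At 1 day after injury, 5 of the 9 members were lower than in uninjured arteries by the brighter probe (let-7b, let-7c, let-7d, let-7e and let-7i), miR-98 was higher, and let-7a, let-7f and let-7g did not pass the test. Over all 321 miRNAs tested, 12.8% were lower and 19.6% were higher at an adjusted p under 0.05. The median difference of the members was -0.72, against 0.24 over all tested miRNAs. With slide as a block 0 members passed by limma, against 9.35% of all miRNAs, and let-7b alone had an unadjusted p under 0.05. With the dimmer probes only let-7b (lower) and miR-98 (higher) passed, against 29.6% of all in either direction. In a whole artery, fewer cells of a type and less RNA per cell cannot be told apart.

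let-7b and let-7c, the pair in Lncppara, were both lower at day 1 by the brighter probe, though let-7c also has a hairpin on chromosome 16. let-7b was 5.34, 5.51 and 5.54 in uninjured arteries and 4.13, 4.32 and 4.28 at day 1. All 3 day 1 arrays lay below every uninjured array, at a log2 difference of -1.22 (SE 0.21, adjusted p = 0.000670). The dimmer probe gave -0.90 (SE 0.16, adjusted p = 0.00125), and the slide block -0.57 (SE 0.23, adjusted p = 0.198). let-7c, which differs from let-7b by a single base, was 5.36, 5.42 and 5.53 in uninjured arteries and 4.53, 4.64 and 4.50 at day 1. The groups did not overlap and the difference was -0.88 (SE 0.17, adjusted p = 0.00177). Its dimmer probe gave -0.37 (SE 0.16, adjusted p = 0.0957), which did not pass.

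The 3 members with hairpins in the chromosome 13 cluster differed at day 1 by the brighter probe and less by the dimmer. let-7d was 3.94, 4.07 and 4.07 in uninjured arteries and 3.29, 3.32 and 3.31 at day 1, at -0.72 (SE 0.17, adjusted p = 0.00529) with no overlap. The dimmer probe of let-7d gave -0.09 (SE 0.14, adjusted p = 0.617). let-7a, the most widely studied member, was 4.38, 4.36 and 4.44 against 4.34, 4.22 and 4.15, and all day 1 arrays lay below the uninjured ones. Its difference of -0.15 (95% confidence interval -0.43 to 0.12) did not pass the test (adjusted p = 0.366), and its dimmer probe gave -0.09, close to that of let-7d. let-7f was 3.87, 3.76 and 3.72 against 4.11, 3.98 and 3.86, with overlapping groups and a difference of 0.20 (95% confidence interval -0.09 to 0.49, adjusted p = 0.272), and 0.24 by the dimmer probe (adjusted p = 0.257).

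let-7e, the member beside miR-125a, was 3.38, 3.52 and 3.51 in uninjured arteries and 2.54, 2.45 and 2.19 at day 1. The groups lay apart and the difference was -1.08 (SE 0.26, adjusted p = 0.00606). The dimmer probe of let-7e gave -0.26 (SE 0.20, adjusted p = 0.303). let-7i was 4.28, 4.36 and 4.45 against 3.50, 3.62 and 3.65, also with no overlap, at -0.77 (SE 0.19, adjusted p = 0.00863). Its dimmer probe gave 0.03 (SE 0.16, adjusted p = 0.900), so the fall of let-7i at day 1 was seen by the brighter probe only.

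let-7g, whose hairpin lies in Wdr82, was 3.64, 3.59 and 3.78 in uninjured arteries and 3.46, 3.65 and 3.46 at day 1. The groups overlapped and the difference was -0.15 (SE 0.16, adjusted p = 0.497), while the dimmer probe had the opposite sign at 0.32 (SE 0.18, adjusted p = 0.203). miR-98, which shares the Huwe1 locus with let-7f-2, was -2.11, -2.10 and -1.79 in uninjured arteries and -1.30, -1.39 and -1.73 at day 1. All day 1 arrays of miR-98 were higher, at a difference of 0.53 (SE 0.18, adjusted p = 0.0399). The dimmer probe of miR-98 also gave 0.53 (SE 0.19, adjusted p = 0.0477). The direction of miR-98 rests on the scaling: it was -0.11 when the 75th percentile was taken over all mouse probes and -0.12 with scaling to the median. These scalings moved the median of all tested miRNAs at day 1 from 0.24 to -0.31 and -0.34, and with each of them 7 members were lower and 0 higher by limma. The share of all miRNAs called lower with these scalings was not counted, so the member counts cannot be set against it. The call of miR-98 at day 1 was also lost without any of day 1 replicates 1 and 2, day 7 replicate 3, day 14 replicate 2 and uninjured replicates 1 and 2, with values of 0.44 to 0.66 when 1 array was left out.

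At day 7, let-7b and let-7c were lower and let-7f and miR-98 were higher than in uninjured arteries, and the other 5 members did not pass. Among all tested miRNAs 22.4% were lower and 27.4% were higher. The median difference of the members was -0.08, against 0.003 over all tested. let-7b was 4.58, 4.48 and 4.83 at day 7, below every uninjured array, at -0.83 (SE 0.21, adjusted p = 0.00428). let-7c was 4.76, 4.75 and 5.00, likewise below, at -0.60 (SE 0.17, adjusted p = 0.0111). Neither fall held with the dimmer probe, which gave -0.20 for let-7b (adjusted p = 0.335) and -0.07 for let-7c (adjusted p = 0.776). Their sign also turned without scaling, at 0.13 for let-7b and 0.36 for let-7c (median of all tested 0.86), and for let-7c under quantile normalization at 0.05.

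let-7f was 4.13, 4.29 and 4.28 at day 7, above every uninjured array, at a difference of 0.45 (SE 0.13, adjusted p = 0.0134). The dimmer probe of let-7f gave 0.53 (SE 0.16, adjusted p = 0.0134). miR-98 was -1.29, -1.24 and -1.19, also wholly above the uninjured arrays, at 0.76 (SE 0.18, adjusted p = 0.00322) and 0.78 (SE 0.19, adjusted p = 0.00370) by the dimmer probe. Both members of the Huwe1 locus thus rose at day 7 by both probes, although let-7f also comes from chromosome 13. let-7i was 4.50, 4.51 and 4.60, all above the uninjured arrays. Its difference was 0.17 (SE 0.19, adjusted p = 0.508) by the brighter probe and 1.06 (SE 0.16, adjusted p = 0.000117) by the dimmer.

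The remaining members at day 7 ranged from -0.50 (let-7e) to 0.10 (let-7a) by the brighter probe. let-7e was 3.06, 2.87 and 2.98 (-0.50, adjusted p = 0.129) and let-7d was 3.70, 3.59 and 3.67 (-0.38, adjusted p = 0.0812), both below every uninjured array without passing the test. By the dimmer probe these were 0.37 for let-7e and 0.26 for let-7d, the opposite sign. let-7a was 4.50, 4.41 and 4.58, and let-7g was 3.61, 3.52 and 3.66, and both overlapped the uninjured range. With slide as a block 0 members passed at day 7 by limma, against 28.7% of all miRNAs. let-7f (0.53), let-7i (0.67) and miR-98 (0.72) then had an unadjusted p under 0.05. With the dimmer probes 3 members passed (let-7f, let-7i and miR-98, all higher), against 49.5% of all.

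**Figure D3:**
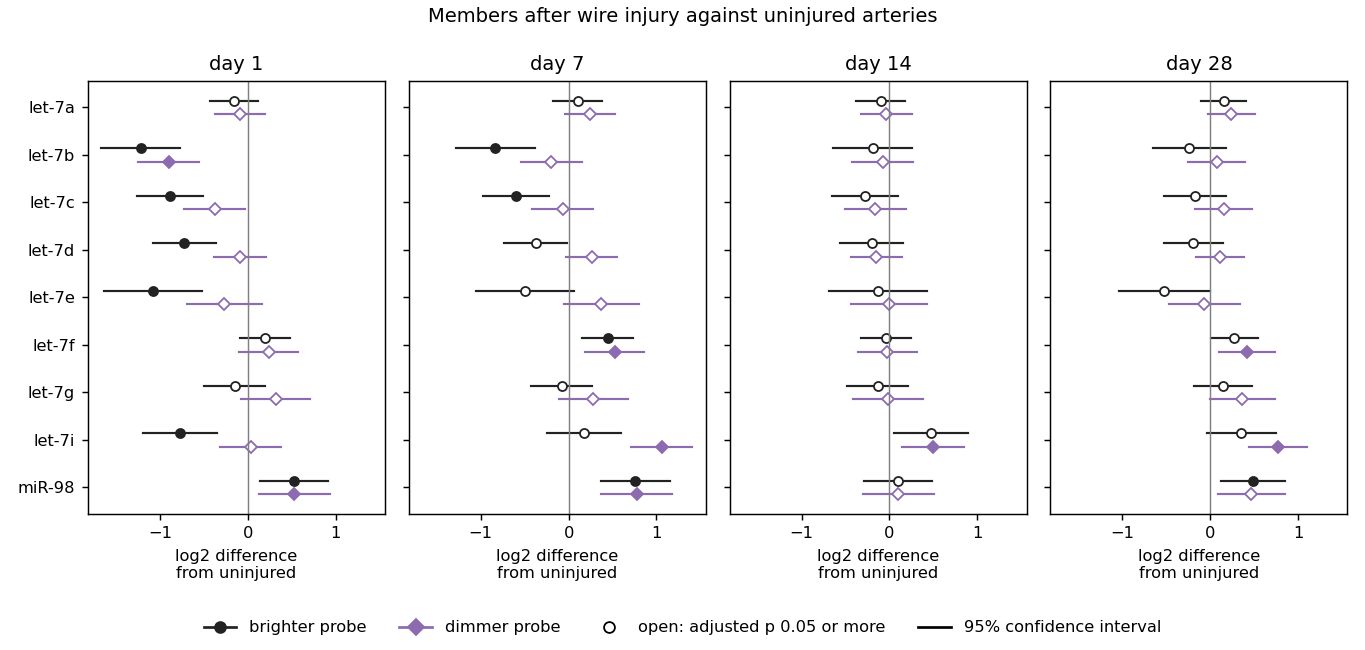
Log2 difference of each member from uninjured arteries at day 1, 7, 14 and 28, with 95% confidence intervals from limma; circles are the brighter and diamonds the dimmer probe, and filled symbols have an adjusted p under 0.05. The probes lie close together for let-7a, let-7f and miR-98, and apart at days 1 and 7 for let-7d, let-7e and let-7i.

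At day 14, where both groups lie on slide 2, 0 of the 9 members passed by limma, while 19% of all tested miRNAs were lower and 20.2% were higher. let-7i alone had an unadjusted p under 0.05. It was 4.98, 4.97 and 4.55, above every uninjured array, at a difference of 0.47 (SE 0.19, adjusted p = 0.0730). In a fit of the slide 2 arrays alone the same difference had an adjusted p of 0.0377, and with slide as a block 0.0389. The dimmer probe of let-7i gave 0.49 (SE 0.16, adjusted p = 0.0286), the only member to pass that way, against 38.3% of all miRNAs. Here, within a slide, both probes of let-7i gave nearly the same size.

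The other 8 members differed from uninjured arteries by -0.28 to 0.10 at day 14. let-7c was 5.13, 5.26 and 5.07 and let-7d was 3.82, 3.88 and 3.77, each below every uninjured array, at -0.28 (95% confidence interval -0.66 to 0.10) and -0.20 (-0.57 to 0.16). let-7b was 5.27, 5.39 and 5.15 and let-7e was 3.32, 3.42 and 3.30, both overlapping the uninjured range. Relative to the family mean let-7c, let-7d and let-7e also lay wholly below the uninjured arrays, without passing. let-7a (4.24, 4.29 and 4.35) and let-7g (3.49, 3.59 and 3.53) lay just below the uninjured arrays at -0.10 and -0.13. let-7f was 3.72, 3.66 and 3.86 and miR-98 was -1.94, -1.998 and -1.77, both overlapping the uninjured values.

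At day 28 miR-98 alone passed, while 9.35% of all tested miRNAs were lower and 16.8% were higher. miR-98 was -1.86, -1.12, -1.41 and -1.66, overlapping the uninjured arrays, at 0.49 (SE 0.17, adjusted p = 0.0481). This call was lost when any of 13 of the 16 arrays was left out. Without day 28 replicate 1, the array with the low family mean, 4 members passed in place of 1. The share of all miRNAs called without that array was not counted. On slide 2 alone let-7i was 4.91 and 5.01, above every uninjured array, and differed by 0.60 (SE 0.15, adjusted p = 0.0469).

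let-7i over all 4 day 28 arrays was 4.15, 4.79, 4.91 and 5.01, with replicate 1 below the uninjured range and the other 3 above it. The difference of let-7i was 0.35 (SE 0.18, adjusted p = 0.176). With slide as a block it was 0.60 (SE 0.18, adjusted p = 0.0412), and let-7i was the only member to pass, against 17.1% of all. This is the slide 2 difference given above, from day 28 replicates 3 and 4, and not a separate result. The dimmer probe of let-7i gave 0.77 (SE 0.15, adjusted p = 0.00191), and with these probes let-7f also passed at 0.42 (adjusted p = 0.0479), against 28.3% of all. let-7i was thus above uninjured arteries at days 14 and 28 by its dimmer probe and within slide 2.

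The other members varied widely at day 28. let-7b was 4.64 and 5.15 on slide 1 and 5.47 and 5.63 on slide 2. let-7c was 4.77 and 5.30 on slide 1 and 5.40 and 5.60 on slide 2. let-7d was 3.31 and 3.89 against 4.07 and 4.07. let-7e was 2.10 and 2.97 against 3.34 and 3.38, the widest spread of a member within day 28 (SD 0.59, n = 4). For all 4 of these both slide 1 arrays lay below both slide 2 arrays. let-7a was 4.23 and 4.72 against 4.64 and 4.59, let-7f was 3.76 and 4.28 against 4.12 and 4.08, and let-7g was 3.34 and 4.06 against 3.99 and 3.87. In these 3 only replicate 1 was low.

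To ask which members departed from the family, the mean of the 9 was subtracted from every miRNA on each array before the fit. Each member is part of that mean, so the 9 relative differences of a comparison sum to 0. A fall of some members on this scale therefore goes with a rise of others. At day 1, let-7b (-0.75, adjusted p = 0.000994), let-7c (-0.41, adjusted p = 0.0131) and let-7e (-0.61, adjusted p = 0.00915) fell relative to the family. miR-98 (1.00, adjusted p = 0.000497), let-7f (0.67, adjusted p = 0.00242), let-7g (0.32, adjusted p = 0.0348) and let-7a (0.32, adjusted p = 0.0450) rose relative to it. Before the subtraction let-7g and let-7a were each at -0.15 by the brighter probe, so they did not rise in level. Since the family mean itself was low at day 1, 44.9% of all tested miRNAs were higher on this scale and 5.3% were lower. let-7d (-0.25, adjusted p = 0.0719) and let-7i (-0.30, adjusted p = 0.0745) did not pass. The call of let-7a was kept in 9 of 35 alternatives and was lost when any of 13 arrays was left out, and that of let-7g was lost without any single day 1 array and without uninjured replicate 1 or 2. The 7 calls fell to 0 with slide as a block by limma, where let-7b and miR-98 had an unadjusted p under 0.05, and to 3 with the dimmer probes (let-7b lower, let-7g and miR-98 higher). Of all 321 miRNAs, 3 were lower and 21 higher with the slide block, and 21 lower and 70 higher with the dimmer probes.

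At day 7 the split was the same in direction: let-7b (-0.73, adjusted p = 0.000729) and let-7c (-0.50, adjusted p = 0.00283) fell and let-7f (0.55, adjusted p = 0.00614) and miR-98 (0.86, adjusted p = 0.000792) rose relative to the family. Among all tested miRNAs 17.8% were lower and 26.8% were higher. With slide as a block 0 members passed by limma on this scale, where let-7b and let-7c had an unadjusted p under 0.05 and let-7f (0.26) and miR-98 (0.45) did not. With the dimmer probes let-7b (-0.56), let-7c (-0.43) and miR-98 (0.41) passed again, let-7i (0.70) passed and let-7f (0.16) did not. Of all 321 miRNAs at day 7, 60 were lower and 35 higher with the slide block, and 90 lower and 61 higher with the dimmer probes. At day 14 let-7i alone passed, higher by 0.53 (SE 0.14, adjusted p = 0.00866), against 14.3% lower and 19.9% higher of all. Its values relative to the family mean ranged from 1.01 to 1.42 at day 14 and from 0.71 to 0.76 in uninjured arteries. Without day 14 replicate 1 it was 0.45 and did not pass. The dimmer probes gave 0.48 for let-7i (SE 0.14, adjusted p = 0.0189), against 50 lower and 62 higher of all 321. At day 28 let-7e alone passed, lower by 0.55 (SE 0.15, adjusted p = 0.0178), against 9.03% lower and 12.8% higher of all, and its values ranged from -1.06 to -0.46 against -0.19 to -0.09 in uninjured arteries. Without uninjured replicate 2 it was -0.52 and did not pass. Its day 28 arrays averaged -0.94 on slide 1 and -0.48 on slide 2. With slide as a block (adjusted p = 0.101) and within slide 2 (adjusted p = 0.0946) the difference was the same -0.33, from the slide 2 arrays. In both fits 0 members passed by limma, with let-7e and let-7i at an unadjusted p under 0.05. The dimmer probes gave -0.35 for let-7e (adjusted p = 0.0336) and also called let-7i, higher by 0.49 (adjusted p = 0.0190). Of all 321 miRNAs at day 28, the dimmer probes called 45 lower and 35 higher. The slide block called 25 lower and 25 higher, and slide 2 alone 19 lower and 31 higher.

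Between days 1 and 7, both on slide 1, all 9 members were higher at day 7, by 0.07 to 0.94, and let-7i alone passed the test. The median difference was 0.28 for the members and -0.19 over all tested miRNAs, of which 24.6% were lower and 18.7% were higher. let-7i rose from 3.50, 3.62 and 3.65 to 4.50, 4.51 and 4.60, at a difference of 0.94 (SE 0.19, adjusted p = 0.00160) or 1.92-fold. The dimmer probe gave 1.03 (SE 0.16, adjusted p = 0.000228), and the slide 1 arrays alone 0.94 (SE 0.18, adjusted p = 0.00415). This rise passed in all 36 alternatives in which let-7i had a value, at 0.77 to 1.67 with a highest adjusted p of 0.00859.

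The rise of let-7i was also larger than that of the family. Relative to the family mean it was 0.57 (SE 0.14, adjusted p = 0.00339), while let-7g was lower by 0.30 (SE 0.12, adjusted p = 0.0439). In the slide 1 arrays alone let-7i passed (0.57, adjusted p = 0.0109) and let-7g did not (adjusted p = 0.101). On that scale 42.1% of all miRNAs were lower and 9.35% were higher. The other members were higher at day 7 without passing: let-7e by 0.58 (adjusted p = 0.0830), let-7b by 0.38 (0.141), let-7d by 0.35 (0.108), let-7c by 0.28 (0.202), let-7a by 0.26 (0.111), let-7f by 0.25 (0.140), miR-98 by 0.23 (0.305) and let-7g by 0.07 (0.736). By the dimmer probes let-7b (0.70), let-7e (0.64) and let-7d (0.35) passed along with let-7i, against 47% of all miRNAs. let-7a (0.33), let-7c (0.31), let-7f (0.29), miR-98 (0.25) and let-7g (-0.04) did not. The number that passed depends on the spread and scaling: it was 5 without day 28 replicate 1 and 9 with the 75th percentile taken over all mouse probes. The share of all miRNAs called in those fits was not counted.

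From day 7 to day 14, which crosses slides, let-7f was lower by 0.49 (SE 0.13, adjusted p = 0.0364) and miR-98 was lower by 0.66 (SE 0.18, adjusted p = 0.0364), and day 14 lay wholly below day 7 for both. Both calls were lost without any single day 14 array, day 7 replicate 2 or 3, day 1 replicate 2 or uninjured replicate 2, and that of miR-98 also without day 7 replicate 1. Of all tested miRNAs 6.23% were lower and 4.05% were higher. let-7b was higher by 0.64 without passing (adjusted p = 0.0653). With slide as a block 0 members passed by limma, and so did 0 of all 321 miRNAs, so this is not particular to the family. In that fit let-7f alone had an unadjusted p under 0.05. With the dimmer probes miR-98 alone passed, at -0.68 (adjusted p = 0.0478), against 20 lower and 2 higher of the 321. From day 14 to day 28, 0 members passed by limma, against 5.61% lower and 9.66% higher of all, while let-7f (0.31) and miR-98 (0.39) had an unadjusted p under 0.05. Without day 28 replicate 1 it was 3 members, and the share of all miRNAs called was not counted.

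The passenger strands report on the other arm of the same hairpins. The hairpin of let-7i, whose guide changed most between days 1 and 7, is shown with the guide and passenger strands in capitals, since both arms were measured (RefSeq, GRCm38.p6, chr10:122985640-122985724, minus strand).
Mirlet7i: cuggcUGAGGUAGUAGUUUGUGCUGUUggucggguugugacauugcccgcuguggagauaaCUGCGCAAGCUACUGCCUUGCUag
The arrays hold 7 let-7 passenger strands, written with an asterisk, of which 4 were tested and let-7a*, let-7c-1* and let-7f* were well above background on 0 arrays. let-7i* was -4.99, -4.997 and -5.05 at day 1, on all 3 arrays above background. In uninjured arteries it was well above background on 0 of 3 arrays, and day 1 was at least 1.23-fold higher. The limma difference was 0.74 (adjusted p = 0.000396), with uninjured values raised to the floor where lower. let-7i* entered the test only because it was detected throughout day 1. Values at the floor have almost no spread, so this p-value is no measure of the change. At day 7 let-7i* was back at or near the floor of -5.79 and well above background on 2 of 3 arrays. It was lower than at day 1 (adjusted p = 0.000239), under the same limit. The guide of let-7i went the other way between those days, rising by 0.94.

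**Figure D4:**
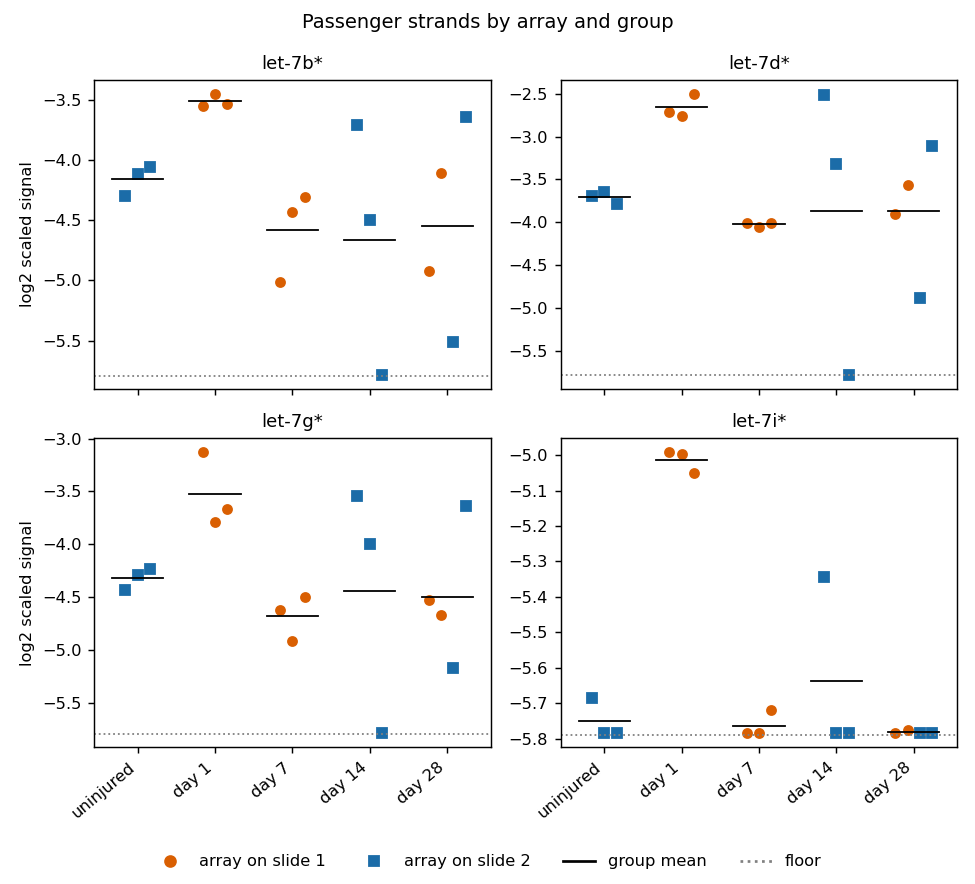
Log2 scaled signal of the 4 tested passenger strands on each array by group, with circles for slide 1, squares for slide 2, black lines for group means and a dotted line at the floor; each panel has its own vertical axis. All 4 are highest on average at day 1, and 1 array of day 14 lies at the floor for let-7b*, let-7d* and let-7g*.

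let-7b* was -3.55, -3.45 and -3.54 at day 1 against -4.30, -4.11 and -4.06 in uninjured arteries. let-7d* was -2.71, -2.76 and -2.50 against -3.69, -3.65 and -3.79. let-7g* was -3.13, -3.79 and -3.67 against -4.43, -4.29 and -4.23. In each of these 3 the day 1 arrays lay above all uninjured arrays, yet differences of 0.64 (adjusted p = 0.324), 1.05 (0.219) and 0.79 (0.226) did not pass. How many of all tested miRNAs lay apart in this way was not counted, and their median difference at day 1 was 0.24. This comparison crosses slides, as it does for let-7i*. The spread of let-7b*, let-7d* and let-7g* was wide because day 14 replicate 3 was at the floor for all 3 and day 28 replicate 3 was low, at -5.51, -4.89 and -5.17. Within slide 1, where neither array enters, let-7b* (-1.07, adjusted p = 0.0129), let-7d* (-1.37, adjusted p = 0.000292) and let-7g* (-1.15, adjusted p = 0.00360) were lower at day 7 than at day 1, against 29% of all miRNAs called lower in that fit. In the fit over all 16 arrays the same 3 differences did not pass (adjusted p = 0.0904, 0.0904 and 0.0676), nor with slide as a block (0.105, 0.104 and 0.0788). With the dimmer probes over all 16 arrays let-7d* (-1.44, adjusted p = 0.0266) and let-7g* (-1.09, adjusted p = 0.0130) passed. let-7b* did not (-1.13, adjusted p = 0.0845), against 47% of all miRNAs called in either direction. The guides of the same hairpins were higher at day 7 than at day 1 by 0.38, 0.35 and 0.07 by the brighter probe, without passing in the fit over all 16 arrays. By the dimmer probe let-7b (0.70, adjusted p = 0.00311) and let-7d (0.35, adjusted p = 0.0482) passed and let-7g (-0.04) did not. With slide as a block let-7d also passed by the brighter probe (adjusted p = 0.04935), against 77 lower and 64 higher of all 321 miRNAs.

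Among the 5 miRNAs that share let-7 transcripts or belong to paralogous ones, miR-99a and miR-100 were lower at days 1 and 7 by the brighter probe, in comparisons that cross slides. miR-99a, the neighbour of let-7c-1, was 3.29, 3.35 and 3.49 in uninjured arteries and 2.06, 2.15 and 2.10 at day 1, at -1.27 (SE 0.19, adjusted p = 0.000311). It was lower by 0.99 at day 7 (SE 0.19, adjusted p = 0.000904) and did not pass at day 14 or 28. Neither call held under the slide block, at -0.63 (adjusted p = 0.0945) and -0.34 (adjusted p = 0.272), and the dimmer probe of miR-99a kept day 1 (-0.59, adjusted p = 0.00333) but not day 7 (-0.22, adjusted p = 0.173). miR-100, the neighbour of let-7a-2, was 2.39, 2.21 and 2.47 in uninjured arteries, and lower by 1.28, 1.36, 0.69 and 0.64 at days 1, 7, 14 and 28 (adjusted p = 0.000358, 0.0000914, 0.0158 and 0.0237). Under the slide block miR-100 was lower by 0.61, 0.69, 0.69 and 0.30 on these days (adjusted p = 0.106, 0.0260, 0.00132 and 0.194). Its dimmer probe gave -0.60, -0.54, -0.68 and -0.24, and day 28 did not pass (adjusted p = 0.175). let-7a did not pass on any of these days. miR-125a-5p, beside let-7e, was lower by 0.41 at day 1 (adjusted p = 0.0286), but by the dimmer probe it was 0.18 (adjusted p = 0.259) and under the slide block -0.34 (adjusted p = 0.331). miR-125b-5p, on the other side of let-7a-2, was -0.01 at day 1, -0.34 at day 7 and 0.03 at day 28, and passed at day 14 alone (-0.78, adjusted p = 0.00664; dimmer probe -0.75, adjusted p = 0.00722). miR-99b did not pass against uninjured arteries on any day by the brighter probe, and by the dimmer it was lower at day 1 (-0.67, adjusted p = 0.0105).

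Members that differ by few bases were not always alike across the arrays. Over the 36 pairs, the mean absolute difference between 2 members' profiles across the 16 arrays, each centred on its own mean, had a median of 0.29. The most alike were let-7a and let-7g (0.09, 2 bases apart), let-7c and let-7d (0.09, 3 bases), let-7f and miR-98 (0.13, 3 bases) and let-7a and let-7f (0.13, 1 base). The least alike were let-7b and miR-98 (0.66, 3 bases apart), and let-7a and let-7e, 1 base apart, were at 0.37. The median was 0.21 for the 4 pairs that differ by 1 base, 0.28 for the 10 pairs with 2 and 0.26 for the 11 pairs with 3. All pairs share the arrays and the scaling, and these values are a description with no test.

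Outside the family, the 5 miRNAs whose profiles lay nearest to the family mean over the 16 arrays were miR-181d (mean absolute difference 0.11), miR-125a-5p (0.13), miR-191* (0.15), miR-130a (0.16) and miR-324-3p (0.17), against a median of 0.50 over 312 miRNAs. These were chosen for their profile, so their changes were not tested further.

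Markers of other cells moved over the same days. The summed scaled signal of the 6 leukocyte miRNAs, 5 of them detected on all arrays, ranged from 2.95 to 3.06 in uninjured arteries and from 26.6 to 29.3 at day 1. At day 7 it ranged between 15.7 and 20.4, at day 14 between 14.5 and 21.4, and at day 28 between 12.2 and 16.2. The 2 smooth muscle miRNAs miR-143 and miR-145, both detected on all arrays, summed to between 3.53 and 6.37 in uninjured arteries, 2.94 and 5.13 at day 1, 1.54 and 1.80 at day 7, and 1.89 and 2.08 at day 28, with a lowest sum of 1.06 at day 14. The 2 endothelial miRNAs, 1 of them at the floor on all arrays, summed to 9.70 to 10.3 in uninjured arteries and 7.05 to 9.82 at day 1. Later their sum lay above every uninjured array, between 12.3 and 15.4 at day 7, 12.2 and 13.9 at day 14, and 11.2 and 15.7 at day 28. The part of these cells in the changes of let-7 members was not tested. Striated muscle, erythroid and nerve miRNAs were also present, at sums of 7.97 to 12.2, 16.3 to 42.9 and 0.64 to 1.63 in uninjured arteries and 5.68 to 19.5, 27.7 to 63.0 and 1.12 to 2.45 at day 1. Of these, 3 of 4 striated muscle, 3 of 3 erythroid and 0 of 3 nerve miRNAs were detected on all arrays. At days 7, 14 and 28 striated muscle sums were 3.86 to 7.25, 3.63 to 6.55 and 2.455 to 5.24. Erythroid sums were then 15.1 to 27.7, 15.2 to 25.0 and 25.0 to 41.6. Nerve sums were 0.088 to 0.128, 0.054 to 0.495 and 0.284 to 0.672.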

How the data were processed

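Total RNA of 16 carotid arteries was run on 1-colour (Cy3) Agilent mouse miRNA arrays, per the labels' protocols. The deposited scanner files hold spot intensity values that the authors obtained with Agilent Feature Extraction 9.5.1.1, which subtracted the background, per the file headers. They were not brought to a common scale between arrays. A deposited value table of linear intensity holds 610 miRNAs, of which 99.95% of values lay within 0.1% of the total gene signal of the scanner files. Its column medians ran from 3.81 to 16.6, so it is not centred. It has 8 of the 9 members, and let-7i from it is not analysed here.

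From these files, spots without an outlier mark were averaged per probe, probe values were scaled to the 75th percentile of 395 probes detected throughout, raised to a floor of 0.0181 (log2 -5.79) where lower, and put on the log2 scale. A probe was detected (well above background) where at least 50% of its spots were. The brightest probe stood for a miRNA, and the 321 miRNAs detected throughout at least 1 group were tested. The test was limma (version 3.58.1, under R version 4.3.3, with the package data.table, version 1.17.8), without covariates, 1 model over 5 groups and Benjamini-Hochberg adjustment over the 321 within a comparison, called at an adjusted p under 0.05. Adjusted p-values in the report come from this test. With 3 arrays against 3 an exact two-sided permutation test cannot go below 0.1, so none was used.

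All 9 members, the listed passenger strands and transcript neighbours, and the 5 miRNAs nearest to the family mean were named by rule. Members and lists were chosen with earlier results of these data known. Replicate numbers did not pair the samples (median correlation of deviations -0.06 for same-numbered arrays of different groups, 4 of 16 arrays closest to their own number). Alternatives covered scaling, background, filters, floor, spot and probe choice, the value table, slide and replicate blocks, moderation and each array left out. The fits with the dimmer probe, and without 2 arrays with low passenger strands, were added after the data were seen. In 20 simulated sets modelled on day 1 against uninjured, with 60 of 321 miRNAs changed, 31.2% of changes of 0.5, 61.8% of 1 and 88.5% of 2 (log2) were called, and 0.46% of unchanged miRNAs. The simulated noise was independent between arrays and held no slide effect, whereas the real day 1 and uninjured arrays lay on different slides. These rates therefore do not cover false calls that come with slide.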

Additional observations from a re-analysis of the deposited data

Results flagged for a closer look

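The family mean of the 4 day 28 arrays held 1 array far from the others: replicate 1 was 3.16 and the next 3.78, a gap of 0.911 of the group's whole range. The limit it passed is passed by chance in about 1 in 20 groups, and no single member's day 28 values met the same limit.

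The effect of injury differed between days for 3 members. let-7i was higher at day 7 than at day 1 by 0.94 on the log2 scale, and by 0.57 relative to the family mean, within slide 1. let-7f and miR-98 differed between days 14 and 7 by -0.49 and -0.66, across slides. Relative to the family mean, let-7g differed between days 7 and 1 by -0.30.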

How the results depend on the processing

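Among the results that passed, the rise of let-7i from day 1 to day 7 passed in all 36 alternatives with a value for it. The fall of let-7b at day 1 was kept in 33 of 37, the rise of miR-98 at day 7 in 34 of 37 and the rise of let-7i relative to the family at day 14 in 33 of 35, the last lost without day 14 replicate 1. miR-98 was kept at day 1 in 17 of 37 and at day 28 in 6 of 38, and let-7f and miR-98 from day 7 to day 14 in 16 of 36 each. With 1 array left out at a time, between 5 and 6 members were called by limma at day 1, between 4 and 6 at day 7, 0 or 1 at day 14 and between 0 and 4 at day 28. Day 7 against day 1 gave between 1 and 5, and each later step between 0 and 3. Relative to the family mean these counts were 5 to 8 (day 1), 4 to 6 (day 7), 0 or 1 (day 14) and 0 to 2 (day 28). The highest counts against uninjured at days 7, 14 and 28, and between days, came without day 28 replicate 1. The share of all miRNAs called with 1 array left out was not counted.

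Counts of members called by limma moved as follows, against 6, 4, 0 and 1 at days 1, 7, 14 and 28, 1 from day 1 to day 7, 2 from day 7 to day 14, and 7, 4, 1 and 1 relative to the family mean. From day 7 to day 14 the count was 0 with the 75th percentile over all mouse probes, median scaling, quantile normalization, no scaling, total gene signal, the value table and the random slide block, 1 with normexp, no filter and the dimmer probe, and 4 with only the 2 groups. From day 1 to day 7 it was 9 with the 75th percentile over all mouse probes and with median scaling, 5 with the mean over probes, 4 with the dimmer probe, 3 with quantile normalization and with only the 2 groups, and 0 with the value table, which lacks let-7i here. At day 28 it was 0 with the 75th percentile over all mouse probes, no scaling, normexp, no filter, the value table, the random slide block, a fit of only the 2 groups and trended robust moderation, 2 with quantile normalization (both lower) and the dimmer probe, and 3 with the mean over probes. At day 14 it was 1 with median scaling, the mean over probes, the dimmer probe and slide 2 alone. At day 1 it was 0 with no scaling and 2 with the dimmer probe. Slide 2 alone called 50 lower and 76 higher of all 321 miRNAs at day 14. For the alternatives listed here, apart from the dimmer probe and slide 2 alone, the share of all miRNAs called was not counted.

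With slide as a fixed block the counts were 0 at days 1 and 7, 1 at day 14, 3 from day 1 to day 7 and 0 from day 7 to day 14. Relative to the family mean they were 0 at days 1, 7 and 28. The fixed block fit called 6 lower and 24 higher of all 321 miRNAs at day 1, 39 and 53 at day 7, and 60 and 69 at day 14. From day 1 to day 7 it called 77 lower and 64 higher. From day 7 to day 14 that fit called 0 of all 321 miRNAs. With the dimmer probe and the slide block the member counts were 0, 1 and 1 at days 1, 7 and 14. Of all 321 miRNAs 3 were lower and 22 higher, 35 and 55, and 49 and 72 on those days. Relative to the family mean, day 1 gave 3 with quantile normalization, the random slide block and the dimmer probe and 4 with normexp, day 14 gave 0 with quantile normalization and the value table and 2 with trended robust moderation, and day 28 gave 0 within slide 2 and with only the 2 groups, 3 with trended robust moderation and 2 with quantile normalization, only miRNAs detected on all arrays, the mean over probes, the value table, the mean of the other 8 members and the dimmer probe. Without day 14 replicate 3 and day 28 replicate 3 the counts were 1 at day 14, 0 at day 28 and 0 from day 7 to day 14. The share of all miRNAs called without these arrays was not counted. Relative to the family mean it was counted only for the fixed slide block, the dimmer probe and each slide alone.

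The replicate numbers did not pair the samples. With the replicate block the count was 0 at day 28, 0 from day 7 to day 14 and 2 at day 28 relative to the family mean. With the replicate block and slide together it was 0 at days 1, 7 and 28, 0 from day 7 to day 14, 2 from day 1 to day 7, and relative to the family mean 0 at days 1, 7 and 28. The share of all miRNAs called with the replicate blocks was not counted.

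Signs turned for miR-98 at day 1 (-0.11 with the 75th percentile over all mouse probes, -0.12 with median scaling), let-7c at day 7 (0.0522 with quantile normalization, 0.36 unscaled, 0.17 with the dimmer probe and slide block) and let-7b at day 7 (0.13 unscaled, 0.14 with the dimmer probe and slide block). They also turned at day 1 for let-7i (0.0319 with the dimmer probe), let-7d (0.0380) and let-7e (0.0153) with the dimmer probe and slide block, for let-7a relative to the family mean (-0.0195, dimmer probe), and at day 7 for let-7c relative to it (0.0022, quantile normalization). The cause was not tested. All members were well above background throughout, and array number and the confounding of slide with group limit these comparisons.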
